A study of Homo sapiens with 6 samples.

Results

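Long noncoding and antisense RNA genes were measured in WPMY-1 cells, an immortalized line of human prostate stromal cells with myofibroblast features, with and without lactate. They were chosen by symbol: LINC or SNHG followed by a number, an -AS ending with a number, or 1 of the names *NEAT1*, *MALAT1*, *MEG3*, *H19*, *GAS5*, *MIAT* and *HOTAIR*. Of 15924 genes listed, 329 carried such a symbol, and the 189 with a mean of at least 0.5 CPM (a read count divided by the library's total and scaled up) over all libraries were kept. The members were thus selected on their measured level, taken over both groups together, and their levels are given below as a description. The study asked how lactate released by prostate cancer cells acts on fibroblasts, and its 6 RNA-seq libraries form 2 groups. The lactate group held 3 libraries of cells given 24 mM lactate for 48 h, and the control group held 3 libraries of untreated cells of the same line. By the study's methods lactic acid was buffered to an acidic pH in a medium without bicarbonate, and the pH of the untreated cells is not given in the sources used here, so lactate and its medium cannot be told apart. The study's methods call its samples biological replicates in general, but the labels of these libraries name no separate cultures, so p-values measure only the spread between these libraries.

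Long noncoding RNAs are transcribed and usually spliced like mRNAs but act as RNA. *MALAT1* collects in nuclear speckles, *NEAT1* is the scaffold of paraspeckles, and *MEG3* and *H19* are imprinted RNAs made from the maternal chromosome. The SNHG genes and *GAS5* carry small nucleolar RNAs (snoRNAs, guides for the chemical modification of ribosomal RNA) in their introns, and their spliced exons are turned over in the cytoplasm, in many cases by nonsense-mediated decay. Antisense genes are named after the protein-coding gene on the opposite strand that they overlap or lie beside, and LINC genes lie between protein-coding genes. *MEG3* is known as a growth-restraining RNA that many tumours lose.

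Promoter sequence from the RefSeq table of build GRCh38.p14, which gives 300 bases per window with 250 before and 50 after each transcript start, was matched to 149 of the 189 members. Windows of 4 genes are shown, for the highest of the individually named RNAs, for the RNA with the steadiest difference, for the snoRNA host with the most reads among those that passed the test, and for an antisense gene that shares its start region with its sense gene. They are written 5′ to 3′ on the strand of the gene. *MEG3* lies at chr14:100825858-100826157 on the plus strand, and the capitals mark an ATF/CRE word (TGACGTCA), 50 to 43 bases before the start. *MALAT1* lies at chr11:65497488-65497787 on the plus strand, with the hypoxia core word GCGTG in capitals on either strand. *SNHG1* is shown over 200 bases at chr11:62855836-62856035 on the minus strand, with the same word in capitals. The *MEG3* window also holds this word, which is not marked there. *RASAL2-AS1* is shown over 160 bases at chr1:178093944-178094103 on the minus strand, with the first 10 bases of its transcript in capitals, and the first base of *RASAL2*, on the other strand, is the next one upstream of the printed stretch.
MEG3: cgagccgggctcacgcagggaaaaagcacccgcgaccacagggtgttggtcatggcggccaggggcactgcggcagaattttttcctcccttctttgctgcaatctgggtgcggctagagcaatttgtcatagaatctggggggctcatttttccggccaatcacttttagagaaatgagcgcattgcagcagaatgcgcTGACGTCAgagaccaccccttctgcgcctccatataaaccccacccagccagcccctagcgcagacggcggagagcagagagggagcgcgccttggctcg
MALAT1: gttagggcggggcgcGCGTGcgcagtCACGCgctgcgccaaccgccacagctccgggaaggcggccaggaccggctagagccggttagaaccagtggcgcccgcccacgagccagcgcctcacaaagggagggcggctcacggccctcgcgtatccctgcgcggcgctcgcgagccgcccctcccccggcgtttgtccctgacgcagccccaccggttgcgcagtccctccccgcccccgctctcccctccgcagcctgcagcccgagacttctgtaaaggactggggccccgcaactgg
SNHG1: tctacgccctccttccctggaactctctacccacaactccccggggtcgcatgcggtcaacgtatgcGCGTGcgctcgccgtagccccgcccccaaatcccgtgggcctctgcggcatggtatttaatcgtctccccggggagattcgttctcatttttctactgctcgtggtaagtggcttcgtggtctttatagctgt
RASAL2-AS1: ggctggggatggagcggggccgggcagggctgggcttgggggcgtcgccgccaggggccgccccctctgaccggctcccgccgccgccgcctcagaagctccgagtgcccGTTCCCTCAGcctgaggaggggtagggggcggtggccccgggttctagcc

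Each of 6 words was searched on both strands in the 190 windows of these 149 members and in all 35116 windows of the table. The ATF/CRE word TGACGTCA was in 8 member windows (4.21%), against 1.85% of all windows, and its 6 genes were *HHIP-AS1*, *LINC00265*, *LINC00630*, *MAPKAPK5-AS1*, *MEG3* and *PTPRG-AS1*. All 3 RefSeq windows of *MEG3* held it. The AP-1 word TGANTCA, for the factor that the study follows, was in 9 member windows (4.74%), against 7.71% of all windows. Of the 13 members that passed the test below, 11 had a window, and *LINC00346* was the single one of these with the AP-1 word. The hypoxia core words ACGTG and GCGTG were in 26.3% and 57.4% of member windows, against 21.4% and 36.5% of all windows. The E-box CACGTG, which contains the word ACGTG, was in 8.42% of member windows and 7.26% of all windows, and the amino acid response word TGATGNAA was in 2.11% of member windows and 3.62% of all windows. A match is a description of letters and not a binding site. The windows of the whole table were not matched to those of the members for expression or GC content.

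Libraries held between 20392320 and 24055634 counted reads with lactate and between 20238653 and 46505372 in control, and the members took 0.271 to 0.288% of these with lactate and 0.247 to 0.287% in control. The first replicates of both groups stood apart from the others: they differed from replicates 2 and 3 of their own group by a chi-square of 59.4 to 117 per degree of freedom, against 7.13 and 10.4 between replicates 2 and 3. Deviations of genes from their mean ran with GC content, with a correlation across genes of 0.58, 0.02 and 0.22 in lactate replicates 1, 2 and 3, and of 0.29, -0.52 and -0.67 in control replicates 1, 2 and 3. The counts of called genes were therefore also made without both first replicates, and again after a smooth GC and length trend was taken out of each library (trend-corrected below). Levels per library are given as scaled CPM, the CPM after the libraries were made comparable by TMM scaling, and in such shares of a bulk library fewer cells that make an RNA and less of it per cell cannot be told apart. Of 9 stromal markers, 8 were at 1 CPM or more in every library, and their summed level was 5785 to 6082 scaled CPM with lactate and 5392 to 6313 in control. Single stromal markers differed more than their sum: *TAGLN* had 465 to 689 scaled CPM with lactate and 153 to 234 in control, *ACTA2* had 11.996 to 13.5 with lactate and 5.79 to 10.2 in control, and *S100A4* had 31.6 to 59.0 with lactate and 103 to 169 in control. The part of these markers in the results below was not tested. Endothelial markers summed to 0.573 to 1.65 scaled CPM with lactate and 0.780 to 1.76 in control, and epithelial *EPCAM* was at 0 to 0.368 with lactate and 0 to 0.321 in control, beside 742 to 1099 and 782 to 1188 for *KRT18*. The 4 leukocyte markers summed to 78.8 to 101 scaled CPM with lactate and 56.3 to 60.6 in control, nearly all of it *CD68*, a lysosomal protein, with *PTPRC* between 0 and 0.275 in every library.

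With lactate, 13 of the 189 members differed past an adjusted p of 0.05, and are called below (edgeR quasi-likelihood test, Benjamini-Hochberg adjusted over 13188 tested genes), 3 higher and 10 lower. That is 6.88% of the members, against 9.43% of all tested genes, of which 5.29% were higher and 4.14% lower. *MALAT1*, *MEG3* and *FOXD2-AS1* rose. *SNHG1*, *SNHG9*, *LINC00346*, *LINC00857*, *FUT8-AS1*, *C1QTNF9B-AS1*, *KIAA1984-AS1*, *LPP-AS2*, *FBXL19-AS1* and *RASAL2-AS1* fell. All 189 members passed the filter on low counts. An unadjusted p below 0.05 was found in 42 of the 189, against 3663 of the 13188 tested genes. The median log2 fold change of the members was -0.06, against -0.02 for all tested genes. In 56 members (29.6%) the 3 lactate and the 3 control libraries did not overlap, 21 with lactate above and 35 with lactate below, against 32.6% of all tested genes. These shares were near or under those of all genes and are no result about the members as a group. Without both first replicates 47 members were called (24.9%, against 47.4% of all tested genes), and after trend correction 25 of 181 (13.8%, against 22.7%). All 13 were among the calls of both, while leaving out 1 library at a time gave 1 to 24 calls, the fewest without control replicate 2 and the most without control replicate 1. Of all tested genes 1.28% were called without control replicate 2 and 23.1% without control replicate 1, against 0.529 and 12.7% of the members.

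**Figure D1:**
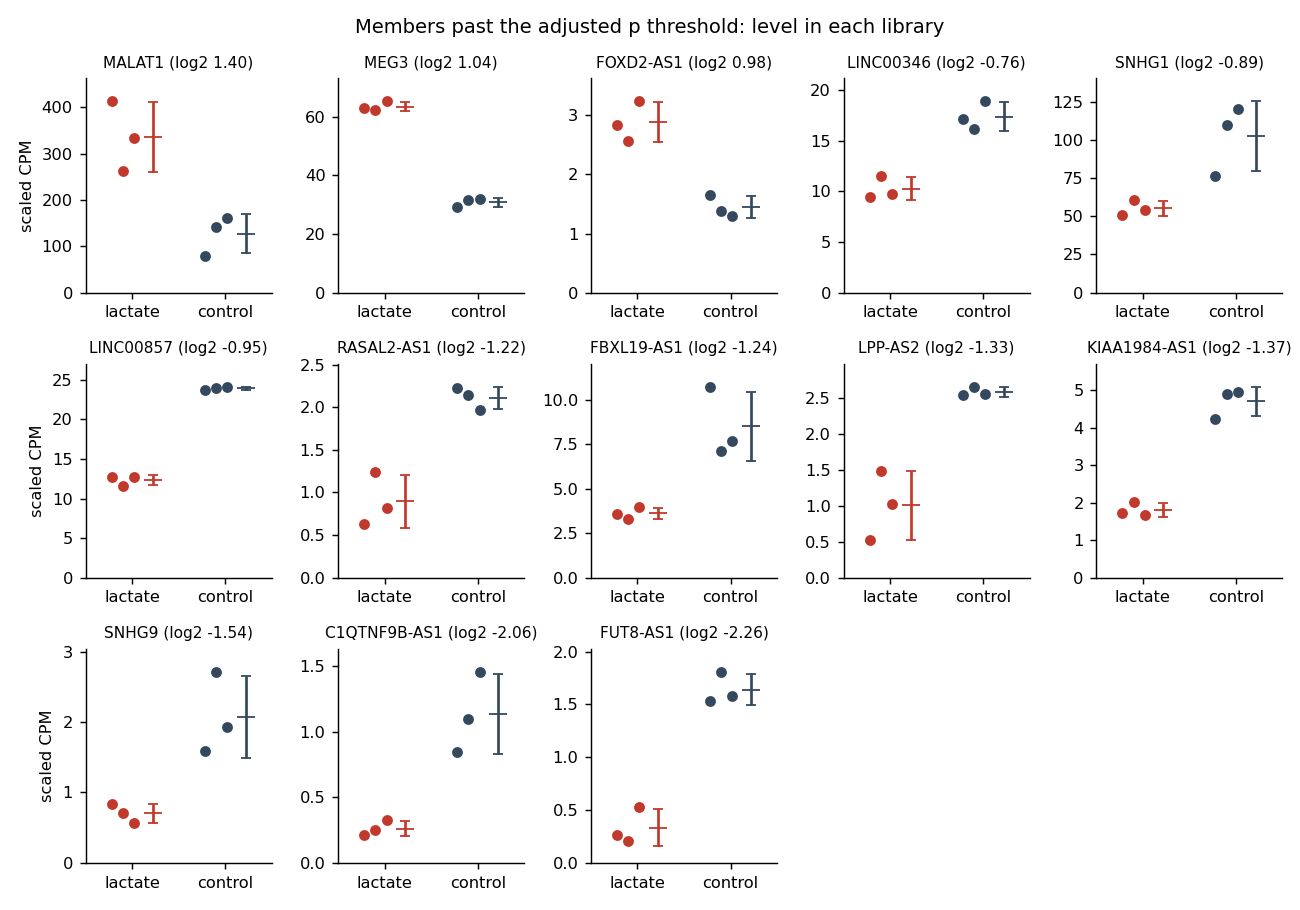
Level of the 13 members that passed the test, in scaled CPM on a linear axis from 0, in 3 lactate libraries (left, red) and 3 control libraries (right, dark); points are replicates 1, 2 and 3 from left to right, and the bar is the mean ± SD. In all 13 the lactate and control libraries do not overlap, from MALAT1 (log2 fold change 1.40) to FUT8-AS1 (-2.26).

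By class, the test was passed by 2 of 5 individually named RNAs (both higher), 2 of 15 snoRNA hosts (both lower), 7 of 126 antisense genes (1 higher, 6 lower) and 2 of 43 LINC genes (both lower). These are 40, 13.3, 5.56 and 4.65%, against 9.43% of all tested genes. The shares of 40, 13.3 and 4.65% rest on 2 genes each and are no result about a class. By level, 2 of 41 members at 0.5 to 1 CPM, 3 of 45 at 1 to 2 CPM, 3 of 63 at 2 to 10 CPM and 5 of 40 at 10 CPM or more were called. These are 4.88, 6.67, 4.76 and 12.5% of the members. The shares of all tested genes in these ranges, taken there on scaled CPM and not on CPM, were 7.94, 9.06, 12.3 and 8.94%. Most members were scarce. Their median level was 2.31 CPM, 86 were under 2 CPM, and 5 reached 100 CPM. At the limit, *LINC00115* and *LINC00634* were just inside with 0.502 CPM each, and *LINC00592* and *RAMP2-AS1* were just outside with 0.489 CPM each. Per kilobase of transcript the highest level was that of *C17orf76-AS1* (*SNHG29* in RefSeq) with 338 CPM per kb, followed by *SNHG5* with 71.3 and *SNHG6* with 59.4 CPM per kb. These levels hold only for reads spread along the transcript, as the labels' kit gives; the study's library section names a kit that reads transcript ends, for which a level per kb has no meaning.

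**Figure D2:**
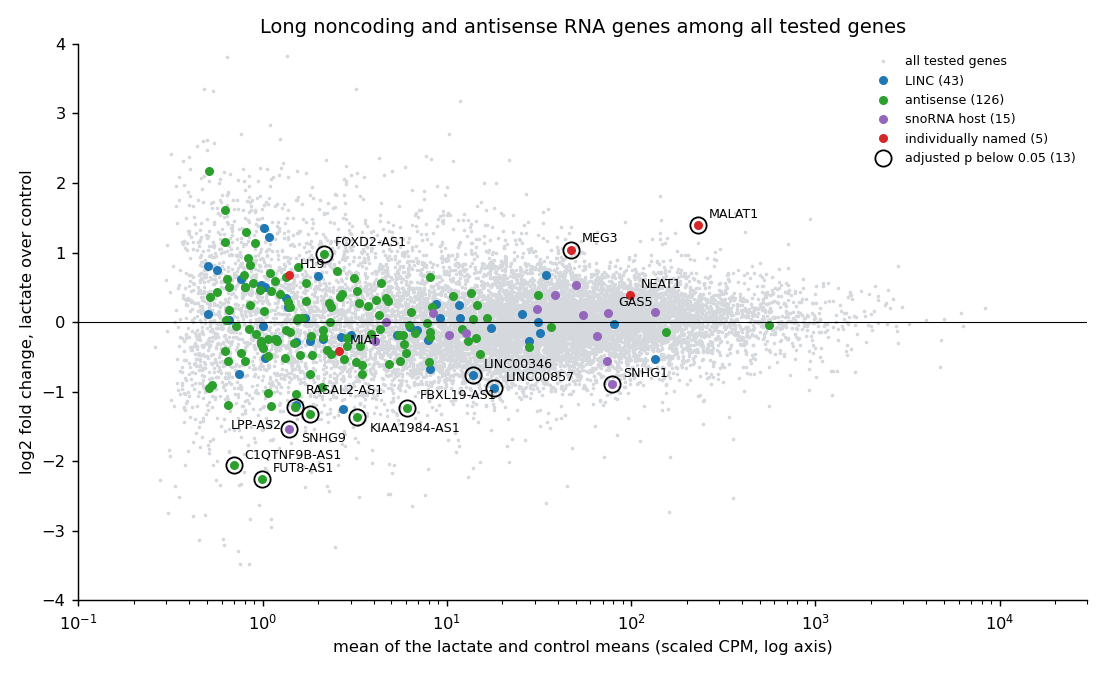
Log2 fold change, lactate over control, against mean level (scaled CPM, log axis) for all tested genes (grey; 4 genes lie outside the drawn range) and for the members in colour by class; black rings mark the 13 members with an adjusted p below 0.05. MALAT1 is the highest ringed point on both axes, and most members lie at the low end of the level axis, where the median is 2.31 CPM.

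*MALAT1* (ENSG00000251562, chr11:65497688-65506516, GRCh38) was the most abundant of the individually named RNAs in reads. It had 413, 262 and 334 scaled CPM in the lactate libraries and 79.9, 141 and 162 in the control libraries. Every lactate library was above every control library, but both groups were wide, with the first replicates at the far ends. The log2 fold change was 1.40 ± 0.27 (SE), a 2.63-fold higher level (adjusted p = 0.018). Its raw counts were 7850, 6327 and 8149 with lactate and 3483, 2960 and 4115 in control, so that *MALAT1* alone made up 9.71 to 13.4% of all member reads with lactate and 3.04 to 5.91% in control. Without both first replicates the log2 fold change was 0.97, and after trend correction it was 1.87. The call was lost without lactate replicate 3 (adjusted p = 0.069) and without control replicate 2 (adjusted p = 0.074). *MALAT1* ends in a triple helix and not in a poly(A) tail, and these libraries were made from RNA selected for poly(A); the part of that selection in the result was not tested.

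*NEAT1* (chr11:65422774-65445540), the neighbour of *MALAT1*, did not pass. It had 99.6, 116 and 119 scaled CPM with lactate, against 72.2, 79.5 and 105 in control. Lactate replicates 2 and 3 lay above all controls, and replicate 1 lay below control replicate 3. Its log2 fold change was 0.38 ± 0.17 (SE, adjusted p = 0.19). It was called after trend correction (log2 fold change 0.65, adjusted p = 0.016) and without both first replicates (0.35, adjusted p = 0.0052). Of the 14 paraspeckle protein genes, which include the NEAT1-binding proteins *NONO* and *SFPQ*, 1 passed the test: *TARDBP*, which encodes the RNA-binding protein TDP-43, fell by 0.56 on the log2 scale (152 ± 21.7 scaled CPM with lactate and 225 ± 14.3 in control, SD, n = 3 each, adjusted p = 0.046). *TARDBP* did not pass after trend correction (-0.26, adjusted p = 0.19) or on leaving out any 1 library other than control replicate 1 (adjusted p from 0.065 to 0.18). DESeq2 called 2 of the 14, both lower, where it called 13.6% of all genes. Trend correction gave 3 calls, all lower, and the fit without both first replicates 7 (2 higher, 5 lower). These fits called 22.7% and 47.4% of all tested genes. The median log2 fold change of these 14 genes was -0.19, against -0.02 for all tested genes.

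*MEG3* (ENSG00000214548, within chr14:100779410-100861031) showed the tightest rise. It had 63.1, 62.2 and 65.3 scaled CPM with lactate, against 29.1, 31.5 and 31.9 in control. The groups were far apart, with an SD of 1.59 scaled CPM with lactate and 1.52 in control (n = 3 each). The log2 fold change was 1.04 ± 0.14 (SE), 2.06-fold higher (adjusted p = 0.0046), and *MEG3* passed under all 13 alternatives run, between 1.00 and 1.08 on the log2 scale. *MEG9*, a noncoding RNA of the same imprinted cluster on chromosome 14 that lay outside the symbol rule and was looked up after the values of *MEG3* were seen, had 2.63, 2.40 and 2.46 scaled CPM with lactate, against 0.573, 0.619 and 1.14 in control. Its log2 fold change was 1.69 ± 0.34 (SE, adjusted p = 0.020), higher in the lactate group as well, and it lost the call without control replicate 2 (adjusted p = 0.12) and without lactate replicate 2 or 3 (0.051 and 0.083). *MEG8*, between them in the cluster, was too low for the test, with 0.246 to 0.455 scaled CPM with lactate and 0.0476 to 0.252 in control.

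The other individually named RNAs were low. *H19*, an imprinted RNA that holds a microRNA, had 1.68, 1.20 and 2.25 scaled CPM with lactate, against 1.22, 1.19 and 0.787 in control (log2 fold change 0.68 ± 0.35, SE, adjusted p = 0.24). *MIAT*, an RNA first described at a locus for myocardial infarction, had 1.21, 2.23 and 3.15 scaled CPM with lactate, against 2.09, 3.19 and 3.70 in control (-0.42 ± 0.37, SE, adjusted p = 0.48). For both, the groups overlapped. *HOTAIR*, an antisense RNA of the HOXC cluster, had 2, 7 and 9 reads with lactate and 12, 6 and 7 in control and was under the level limit.

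Among the 15 snoRNA hosts, *SNHG1* and *SNHG9* fell and 13 did not pass. *SNHG1* (ENSG00000255717, chr11:62851988-62855914), whose introns hold 7 snoRNA genes, had 51.0, 60.5 and 53.9 scaled CPM with lactate, against 76.7, 110 and 120 in control. The lactate libraries lay close together and below all controls, of which the first was the lowest. The log2 fold change was -0.89 ± 0.19 (SE, adjusted p = 0.023), and without both first replicates it was -1.01. The call was lost on leaving out any 1 library other than control replicate 1, with adjusted p from 0.051 to 0.13. *SLC3A2*, which encodes the heavy chain of amino acid transporters and starts 188 bases from *SNHG1* on the other strand, differed by 0.26 on the log2 scale (adjusted p = 0.34). Of the 7 snoRNA genes in *SNHG1*, 6 had rows of their own, with 54, 90 and 73 reads in all with lactate and 120, 106 and 189 in control. These summed reads are not scaled for depth, and their difference was not tested.

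*SNHG9* (chr16:1964959-1965509), host of *SNORA78*, had 0.841, 0.703 and 0.573 scaled CPM with lactate, against 1.58, 2.71 and 1.93 in control. These levels come from 16, 17 and 14 reads with lactate and 69, 57 and 49 in control. The groups did not overlap, and the log2 fold change was -1.54 ± 0.35 (SE, adjusted p = 0.029). The call was lost on leaving out lactate replicate 2 or 3 or control replicate 2 or 3 (adjusted p from 0.075 to 0.15). *RPS2*, a ribosomal protein gene whose start is 99 bases away on the other strand, differed by 0.33 on the log2 scale (adjusted p = 0.42).

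*GAS5*, a host whose spliced RNA builds up when translation is slowed, had 87.7, 76.9 and 68.8 scaled CPM with lactate, against 63.8, 75.4 and 74.4 in control. The groups overlapped (log2 fold change 0.13 ± 0.15, SE, adjusted p = 0.61), but after trend correction *GAS5* was called (0.41, adjusted p = 0.017), and without both first replicates its sign turned (-0.04). *SNHG6* and *SNHG7* were also called after trend correction, in opposite directions (0.70, adjusted p = 0.018, and -0.64, adjusted p = 0.0037), against 0.40 and -0.20 without that step. *SNHG16* had the most reads of the 15 hosts (*C17orf76-AS1*, described below with the antisense genes by its symbol, holds 3 snoRNA genes and had more). It had 144, 151 and 130 scaled CPM with lactate, against 119, 141 and 124 in control (0.15 ± 0.14, SE, adjusted p = 0.52). The remaining hosts ran from *SNHG5* (-0.56, adjusted p = 0.17) to *SNHG15* (0.53, adjusted p = 0.24). None of the 18 nonsense-mediated decay genes passed the edgeR test (6 had an unadjusted p below 0.05, DESeq2 called 2 lower, median -0.27). Of all tested genes, 3663 of 13188 had an unadjusted p below 0.05, and DESeq2 called 13.6% of all genes. After trend correction 6 of the 18 decay genes were called (2 higher, 4 lower), where 22.7% of all tested genes were called. Without both first replicates 12 were called (4 higher, 8 lower), where 47.4% of all tested genes were called. The most abundant in reads were *RNPS1* of the exon junction complex (0.39, adjusted p = 0.094) and the helicase *UPF1* (0.22, adjusted p = 0.39). None of the 16 snoRNP protein genes tested passed edgeR either (3 had an unadjusted p below 0.05, DESeq2 called 1 lower, median -0.14). After trend correction 2 were called, both lower, and without both first replicates 10 (4 higher, 6 lower), beside the same shares of all tested genes. The methyltransferase *FBL* was at 0.31 (adjusted p = 0.43) and its partner *NOP56* at -0.20 (adjusted p = 0.32).

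**Figure D3:**
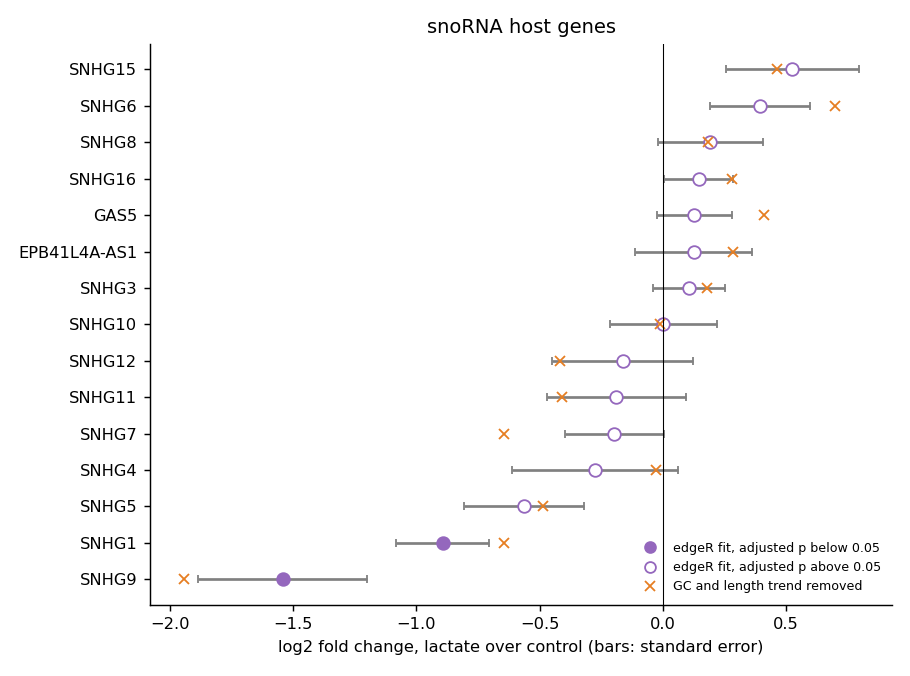
Log2 fold change, lactate over control, of the 15 snoRNA hosts, with the standard error as a bar; filled circles have an adjusted p below 0.05, and crosses give the trend-corrected value. SNHG1 and SNHG9 lie at -0.89 and -1.54, and SNHG1, SNHG9, SNHG6, GAS5 and SNHG7 have crosses outside the bar.

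*LINC00857* and *LINC00346* fell among the 43 LINC genes. *LINC00857* (ENSG00000237523, chr10:80207710-80219657) had 12.7, 11.6 and 12.7 scaled CPM with lactate, against 23.7, 24.0 and 24.1 in control. Both groups were narrow and far apart, and the lactate level was 0.516 of that in control (log2 fold change -0.95 ± 0.16, SE, adjusted p = 0.0095). It ranged from -0.99 to -0.91 over the alternatives and lost the call without lactate replicate 3 (adjusted p = 0.062) and without control replicate 2 (adjusted p = 0.069). *LINC00346* (chr13:110863987-110870251, *PRECSIT* in RefSeq) had 9.47, 11.5 and 9.74 scaled CPM with lactate, against 17.1, 16.1 and 18.9 in control. Its groups did not overlap (-0.76 ± 0.18, SE, adjusted p = 0.032), and the call was lost on leaving out any 1 library other than control replicate 1 (adjusted p from 0.064 to 0.14). *LINC00657* (*NORAD*), a cytoplasmic RNA that binds Pumilio proteins and the LINC gene with the most reads, had 88.3, 128 and 114 scaled CPM with lactate, against 123, 160 and 195 in control. It did not pass (-0.53, adjusted p = 0.13) but was called without control replicate 1 (-0.69, adjusted p = 0.034) and without both first replicates (-0.56, adjusted p = 9.3e-06). *LINC00116* (*MTLN*), which RefSeq lists as coding for a small mitochondrial protein, was called only without both first replicates (0.56, adjusted p = 0.00080), against 0.68 and an adjusted p of 0.22 on all libraries. *LINC00094* (*BRD3OS*), the second by reads, was at -0.02 on the log2 scale (adjusted p = 0.93). RefSeq lists 7 of the 189 members as protein-coding and 174 as lncRNA.

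Of the 126 antisense genes, 7 passed, and *FOXD2-AS1* was the only one of them that rose. *FOXD2-AS1* (chr1:47432133-47434641) had 2.84, 2.57 and 3.23 scaled CPM with lactate, against 1.65, 1.38 and 1.30 in control. The groups did not overlap (log2 fold change 0.98 ± 0.26, SE, adjusted p = 0.045), and the call was lost on leaving out any 1 library other than control replicate 1 (adjusted p from 0.086 to 0.19). *LRP4-AS1* had a larger difference (2.17) that did not pass (adjusted p = 0.083) and was named after its values were seen. It rested on 23, 11 and 20 reads with lactate and 2, 3 and 10 in control.

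*FUT8-AS1* (ENSG00000276116, chr14:65411170-65412690) had the lowest log2 fold change of all members. It had 0.263, 0.207 and 0.532 scaled CPM with lactate, against 1.54, 1.81 and 1.58 in control, from 5, 5 and 13 reads with lactate and 67, 38 and 40 in control. Every lactate library was far below every control library. The log2 fold change was -2.26 ± 0.41 (SE, adjusted p = 0.015), and the call was lost without lactate replicate 2 (adjusted p = 0.05003) and without control replicate 2 (adjusted p = 0.084). *C1QTNF9B-AS1* (chr13:23888889-23897263, *PCOTH* in RefSeq) is named after a gene with a near-identical paralogue, and whether its own reads are uncertain for that reason was not tested. *C1QTNF9B-AS1* had 0.210, 0.248 and 0.328 scaled CPM with lactate, against 0.849, 1.095 and 1.46 in control. It fell by 2.06 on the log2 scale (SE 0.43, adjusted p = 0.022) from 4, 6 and 8 reads with lactate and 37, 23 and 37 in control, and lost the call on leaving out any 1 library other than control replicate 1 (adjusted p from 0.060 to 0.11).

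*KIAA1984-AS1* (chr9:136803927-136808848, *CCDC183-AS1* in RefSeq) had 1.74, 2.03 and 1.68 scaled CPM with lactate, against 4.24, 4.90 and 4.96 in control (log2 fold change -1.37 ± 0.23, SE, adjusted p = 0.0096). *FBXL19-AS1* (chr16:30919319-30923269) had 3.58, 3.31 and 3.97 scaled CPM with lactate, against 10.8, 7.14 and 7.68 in control (-1.24 ± 0.23, SE, adjusted p = 0.016). In both the lactate libraries lay within 1 scaled CPM of each other and below all controls. *LPP-AS2* (chr3:188151206-188154057) had 0.526, 1.49 and 1.02 scaled CPM with lactate, against 2.55, 2.67 and 2.56 in control (-1.33 ± 0.36, SE, adjusted p = 0.049). *RASAL2-AS1* (chr1:178091508-178093984) had 0.631, 1.24 and 0.819 scaled CPM with lactate, against 2.22, 2.14 and 1.97 in control (-1.22 ± 0.32, SE, adjusted p = 0.047). Both had narrow controls and wide lactate groups, with lactate replicate 1 the lowest. *KIAA1984-AS1* lost the call without lactate replicate 3 (adjusted p = 0.062) and without control replicate 2 (adjusted p = 0.066), and *FBXL19-AS1* without lactate replicate 2 or 3 or control replicate 2 (0.053 to 0.066). *LPP-AS2* kept it without lactate replicate 2 or control replicate 1 and *RASAL2-AS1* without control replicate 1 alone, and neither passed with total library size in place of TMM scaling (adjusted p = 0.068 and 0.057).

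The antisense genes were set beside their sense genes in the same fit. Of 127 symbols with an -AS ending, *EPB41L4A-AS1* among the hosts included, 117 had a sense gene with a row and 109 had both genes tested. Pairs were made by symbol, and 3, that of *HNRNPU-AS1* included, could not be placed by position. The antisense gene passed in 6 of these 109 pairs and the sense gene in 5, where 9.43% of all tested genes passed. In no pair did both pass the edgeR test, which with so few calls on each side is no result about pairing. DESeq2 called both genes in 1 pair (*FUT8-AS1* and *FUT8*), the trend-corrected fit in 4 pairs, leaving out control replicate 1 in 2 and the fit without both first replicates in 7. Singly, DESeq2 called 6 antisense and 13 sense genes of the 109 pairs, the trend-corrected fit 10 and 25, the fit without control replicate 1 called 11 and 17, and the fit without both first replicates 22 and 46, so the counts of pairs moved with the counts of all calls. The 2 differences had the same sign in 56 pairs and opposite signs in 53, with a Pearson correlation of 0.15 across the 109 pairs, which share libraries, depth and GC trend. It was 0.18 across the 78 pairs whose exons overlap in GENCODE 29, with 39 pairs of the same sign, and 0.00 across the 45 pairs that start within 1000 bases of each other, with 19. The median antisense level was 5.71% of the sense level in reads over the 109 pairs. Pairs whose sense gene was too low for the test were left out of this median. In these the antisense level was above the sense level, from 238% for *LBX2-AS1* to 7904% for *ASB16-AS1*. The library kit keeps strand, but whether the counting used it is not given in the sources used here, so reads of overlapping partners may be mixed.

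*FUT8*, which encodes the core fucosyltransferase, had 12.9, 23.6 and 18.8 scaled CPM with lactate, against 20.8, 41.2 and 43.5 in control, and its groups overlapped (log2 fold change -0.93 ± 0.31, SE, adjusted p = 0.090). *FUT8-AS1* shares 824 exonic bases with it. *RASAL2*, a RAS GTPase-activating protein, starts 157 bases from *RASAL2-AS1* without overlap in GENCODE 29 and 111 bases from it in RefSeq, where the region between the starts is the one printed above. It had 13.3, 26.7 and 25.3 scaled CPM with lactate, against 21.5, 25.1 and 30.4 in control (-0.23, adjusted p = 0.59). *FBXL19*, whose exons share 98 bases with *FBXL19-AS1*, was at 0.12 on the log2 scale (adjusted p = 0.71), and *LPP*, a focal adhesion protein gene that shares 230 exonic bases with *LPP-AS2*, at 0.15 (adjusted p = 0.80). *FOXD2*, a forkhead factor at under 1.3 scaled CPM in every library, was at 1.25 (adjusted p = 0.17). *KIAA1984*, at only 0.0688 to 0.526 scaled CPM over the libraries, was at 0.60 (adjusted p = 0.64). *LOXL1*, a lysyl oxidase gene, was at 0.32 (adjusted p = 0.22), and the sense genes of *C1QTNF9B-AS1*, *C17orf76-AS1* and *FGD5-AS1* were not analysed here. Neither the *FBXL19* nor the *LPP* value was beyond its standard error, while both antisense genes fell. Some of these values moved with the setting. *FUT8* was lower and called by DESeq2 (-0.94, adjusted p = 0.024), after trend correction (-0.60, adjusted p = 0.030) and without both first replicates (-1.002, adjusted p = 1.2e-08). *LPP* was higher and called after trend correction (0.47, adjusted p = 0.042) and without both first replicates (0.28, adjusted p = 0.041), opposite to *LPP-AS2*, and *FBXL19* turned sign after trend correction (-0.33, adjusted p = 0.024).

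Among sense genes that passed, *ASMTL* (log2 fold change 1.58), *RHPN1* (1.57), *MFI2* (0.91) and *H1FX* (0.90) were higher with lactate. Their antisense genes had 0.73, -0.42, 0.28 and -0.11, none past the test. The fifth was *HNRNPU*, which encodes a nuclear matrix protein that binds chromatin-associated RNAs. *HNRNPU* had 674, 820 and 788 scaled CPM with lactate, against 1218, 1034 and 1106 in control, with no overlap (log2 fold change -0.56 ± 0.14, SE, adjusted p = 0.041), but it did not pass after trend correction (-0.22, adjusted p = 0.55) or on leaving out any 1 library other than control replicate 1 (0.081 to 0.15). *HNRNPU-AS1* had 4.57, 4.88 and 6.31 scaled CPM with lactate, against 3.05, 3.57 and 4.13 in control, the opposite order and also without overlap, but did not pass (0.56 ± 0.23, SE, adjusted p = 0.15). This pair was made by symbol alone. *HNRNPU-AS1* had no matched position, so whether it is a separate gene on the opposite strand of *HNRNPU* was not established. None of the 3 antisense genes with the most reads passed: *C17orf76-AS1* at -0.04 (adjusted p = 0.89), *FGD5-AS1* at -0.15 (adjusted p = 0.54) and *LOXL1-AS1* at -0.07 (adjusted p = 0.78).

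**Figure D4:**
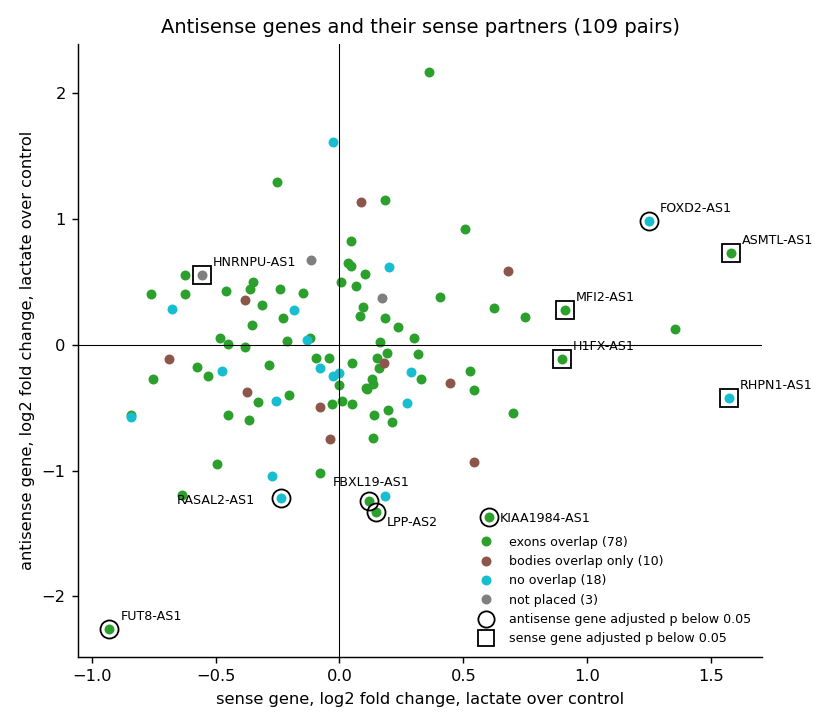
Log2 fold change, lactate over control, of each antisense gene (vertical axis) against that of its sense gene (horizontal axis) in 109 pairs, coloured by whether the exons overlap, the gene bodies overlap or neither does; circles mark antisense genes and squares sense genes with an adjusted p below 0.05. The 6 circled and 5 squared pairs are different pairs, and the points show little common direction (Pearson r = 0.15).

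*HNRNPU* was the single gene that passed among 15 PRC2, G9a and other chromatin factor genes that bind long noncoding RNAs, whose median log2 fold change was -0.23. DESeq2 called 3 of these 15 genes, all lower, where it called 13.6% of all genes. Trend correction gave 2 calls, both lower, and the fit without both first replicates 12 (4 higher, 8 lower). These fits called 22.7% and 47.4% of all tested genes. No gene of the 20 RNA exosome and nuclear decay genes passed the edgeR test (5 had an unadjusted p below 0.05, DESeq2 called 1 lower, median -0.12). In that list 1 gene was called after trend correction (higher), 4 without control replicate 1 (1 higher, 3 lower) and 11 without both first replicates (3 higher, 8 lower). These 3 fits called 22.7, 23.1 and 47.4% of all tested genes. Without control replicate 1, 5 paraspeckle, 3 nonsense-mediated decay, 3 snoRNP and 4 chromatin factor genes were called as well. The exosome and nuclear decay genes with the most reads were the exonuclease *XRN2* at -0.27 (adjusted p = 0.23) and *EXOSC2* at 0.14 (adjusted p = 0.57). Of 26 tested genes in a list of other noncoding RNAs outside the symbol rule, 3 were higher and 1 was lower. That is 15.4%, against 9.43% of all tested genes. The counts were 6 and 1 after trend correction, 3 and 5 without control replicate 1 and 4 and 8 without both first replicates. *MIR210HG*, host of a hypoxia-induced microRNA, averaged 7.39 scaled CPM with lactate and 1.68 in control (log2 fold change 2.12 ± 0.29, SE, adjusted p = 0.0049) and passed under all 13 alternatives. *PVT1*, the neighbour of *MYC*, averaged 29.6 scaled CPM with lactate and 17.6 in control (0.75 ± 0.19, SE, adjusted p = 0.042). *SCARNA9*, a small Cajal body RNA and not a long one, was higher (2.00, adjusted p = 0.044). It averaged 0.919 scaled CPM with lactate and 0.247 in control. *HCG11* (-0.81, adjusted p = 0.044) was lower. *HCG11*, *PVT1* and *SCARNA9* passed under 6, 8 and 5 of their alternatives and lost the call on leaving out any 1 library other than control replicate 1 (adjusted p from 0.070 to 0.20). The median of these 26 genes was -0.20.

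**Figure D5:**
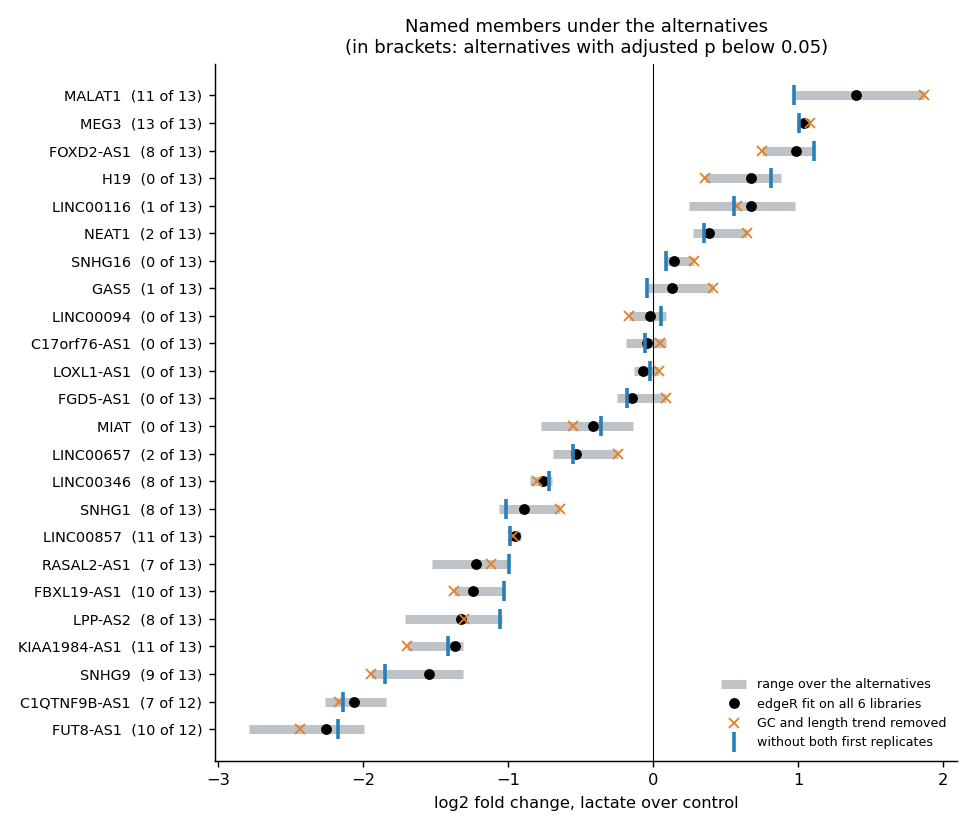
Log2 fold change, lactate over control, of the 24 members singled out by rule: black points give the edgeR fit on all 6 libraries, grey bars the range over the alternatives, crosses the fit with the GC and length trend removed and blue ticks the fit without both first replicates. The numbers in brackets count the alternatives with an adjusted p below 0.05, 13 of 13 for MEG3, and none of the 13 called members crosses 0.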

How the data were processed

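RNA was selected for poly(A) and sequenced single-end from directional libraries, per the labels, while the study's library section names a kit that reads transcript ends; the labels were followed. Per the submitters' processing notes STAR, DESeq2 and hg38 were used, but their versions and the strand setting of the counting were not stated. The deposited values are raw read counts, 1 row a gene symbol, which the authors had not normalized. Here edgeR 4.0.16 in R 4.3.3 (TMM scaling, filterByExpr, quasi-likelihood F test, two-sided) compared 3 lactate with 3 control libraries over 13188 genes, with Benjamini-Hochberg adjustment and a threshold of 0.05. Scaled CPM are counts over the TMM-scaled library total, scaled up as CPM. Mean CPM for membership used column totals. Total counts per library were 20238653 to 46505372. No column was left out. The members, gene lists and tests were chosen with earlier results of these data known. The rule named the 7 symbols given above, every member past the threshold, the 3 members with the most reads in each class, sense partners, the genes past the threshold in each comparison list (else its 2 highest) and the 2 genes either side of the level limit; others are said to be named after their values were seen. Symbols were matched to GENCODE 29 for 181 members and to RefSeq GRCh38.p14 for sequences. Alternatives were DESeq2 1.42.0, RLE size factors, total library size, no filter, a mean of at least 1 CPM, each library left out, and a smooth trend on GC content and length (mgcv 1.9.3) taken out per library. The fit without both first replicates was added after seeing the data. The edgeR step was tested on simulated counts.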

Additional observations from a re-analysis of the deposited data

How the results depend on the processing

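Against 13 members called, 3 higher and 10 lower, other tools and filters gave 11 to 17: DESeq2 called 17 with all 13 among them, RLE size factors and no filter 13 each, total library size 11, and a mean of at least 1 CPM 11 of 148. Of all genes in each fit, DESeq2 called 13.6%, RLE size factors 9.48% and no filter 7.27%. Total library size called 9.20% and a mean of at least 1 CPM 9.67%. Leaving out 1 library in turn gave 1 to 24 calls in all, 1 to 4 higher and 0 to 20 lower. MEG3 alone was called without control replicate 2, MEG3 and FUT8-AS1 without lactate replicate 3, 7 without lactate replicate 1, 5 without lactate replicate 2 and 6 without control replicate 3, while 24 were called without control replicate 1. Of all tested genes, the fits without lactate replicates 1, 2 and 3 called 5.31, 3.82 and 1.56%. Those without control replicates 1, 2 and 3 called 23.1, 1.28 and 2.69%. With the GC and length trend removed 25 of 181 members were called, 8 higher and 17 lower, with all 13 among them. That fit called 22.7% of all tested genes. Without both first replicates, an alternative chosen after seeing the data, 47 were called, 16 higher and 31 lower, again with all 13 among them, where 47.4% of all tested genes were called. The median log2 fold change of the members, -0.06, was 0.039 with the trend removed and ran from -0.086 to -0.0027 with 1 library left out. The cause of these shifts was not tested, and a fit on fewer libraries has fewer degrees of freedom. Small differences turned sign: C17orf76-AS1 with 1 library left out (-0.187 to 0.0891) and with the trend removed (0.046), LINC00094 with 1 library left out (-0.104 to 0.0903) and without both first replicates (0.055), FGD5-AS1 (0.086) and LOXL1-AS1 (0.042) with the trend removed, and GAS5 without both first replicates (-0.041). No called member changed sign. No paired analysis was possible because the labels give no replicate numbers: those used here follow the order of deposition and pair no libraries.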

Other observations

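In the fit without both first replicates, 5 further pairs of antisense and sense genes were called on both sides beside *FUT8* and *LPP*; they are given as values chosen after the data were seen. That fit called 22 antisense and 46 sense genes of the 109 pairs and 47.4% of all tested genes, and the number of such pairs is no result about antisense pairing. *MBNL1-AS1* was at -0.73 and *MBNL1*, a splicing regulator, at -0.91 on the log2 scale (adjusted p = 0.0049 and 3.3e-09). *ZNF674-AS1* was at -0.84 and *ZNF674* at -1.17 (adjusted p = 0.00023 and 0.0020), and *WAC-AS1* at -0.45 and *WAC* at -0.34 (adjusted p = 0.0096 and 0.0098). *MAGI2-AS3* was at -0.45 and *MAGI2* at 0.75 (adjusted p = 0.0024 and 0.012), and *HNRNPU-AS1* at 0.53 and *HNRNPU* at -0.41 (adjusted p = 0.049 and 0.00016). In the MAGI2 and HNRNPU pairs the antisense and the sense symbol differed in direction. The HNRNPU pair was made by symbol alone. *HNRNPU-AS1* had no matched position, so its strand and its overlap with *HNRNPU* were not established. On all 6 libraries none of these 5 pairs was called on both sides by edgeR.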
